A study of Mus musculus with 12 samples.

Results

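A set of 7 genes that mark osteoblasts, the cells that make bone, and osteocytes, the osteoblast-derived cells embedded in it, were followed across a study of rib cartilage cells. They were selected by symbol as Bglap, Bglap2, Sp7, Dmp1, Ifitm5, Phex and Dlx5, and all 7 were found among the 17922 genes listed. RNA was sequenced from primary rib chondrocytes of mice of a mixed, mainly C57BL/6 background, released with collagenase and cultured before lysis. The LDH knockout carried Col2-Cre, floxed Ldha alleles (Ldha fl/fl) and 1 Ldhb allele (Ldhb +/-) and was taken at postnatal day 5. The Acly knockout carried Col2-Cre and floxed Acly alleles (Acly fl/fl) and was taken at embryonic day E18.5. Each knockout was set against its own littermate controls, with 3 samples in each of the 4 groups, and the controls' alleles are not given in the sources used here. Col2-Cre is a recombinase driven in cartilage cells, so a cell of another kind in these cultures need not have lost the floxed gene. The labels do not say whether the samples of a group came from separate animals, so the p-values measure the spread between samples only.

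Osteoblasts arise from mesenchymal progenitors under the control of transcription factors, with Sp7 acting downstream of Runx2, and Dlx5 a homeobox factor active in early bone and cartilage. Mature osteoblasts secrete osteocalcin, the product of the Bglap genes, a small protein that binds mineral after vitamin K-dependent carboxylation of its glutamates. Osteocytes control mineral and phosphate through genes such as Dmp1 and Phex, and Sp7 and Dlx5 are also active in cartilage cells that approach hypertrophy.

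Libraries held 26362407 to 28154143 expected counts, and levels are given as counts per 1000000 after TMM scaling of all 12 samples (CPM), unless stated as TPM, which also divides by transcript length. The LDH knockouts had 84.0, 93.7 and 97.7 CPM of Ldha against 904, 839 and 940 in their controls, the Acly knockouts had 79.0, 48.3 and 82.4 CPM of Acly against 188, 182 and 191, and Ldhb had a log2 fold change of 0.37 (adjusted p = 0.115, edgeR) in the LDH comparison. Ldha and Acly were thus low in every sample labelled as their knockout, while Ldhb, of which 1 allele was lost, was not: it was at 15.1 to 17.3 CPM in LDH knockouts and 12 to 13.05 CPM in controls. The 12 chondrocyte markers summed to 8740 to 29995 CPM per sample, while the 7 bone cell markers summed to 18.9 to 121 CPM. Bone matrix genes, a separate list described below, summed to 5190 to 12329 CPM. Their sum was above the chondrocyte sum in every Acly control (9502 to 12329 against 8740 to 9549 CPM). It was also above in the second LDH control, at 11227 against 11009 CPM. LDH controls had 97.6, 106 and 0.632 CPM of Y-linked RNA, summed over 4 genes, and the LDH knockouts at most 0.0388 CPM. Acly controls had 0.355, 111 and 2.66 CPM and Acly knockouts 0.0707, 72.8 and 78.8 CPM of the same sum. The Y-linked signal was therefore unevenly spread over the groups. In the LDH set it was high only in the first and second controls, so it can hardly be told apart from the knockout. With it as a covariate 3 genes in all were called by edgeR in that comparison, against 332 without it. A call lost under this covariate therefore decides nothing about a single gene.

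Bglap, Bglap2, Sp7 and Dlx5 were measured well above the detection limit in all 12 samples, while Dmp1 was at or near it. Per transcript length, osteocalcin transcripts were the most abundant of the 7 in the LDH controls, with 114 ± 19.8 TPM of Bglap2 and 97.6 ± 34.1 TPM of Bglap (SD, n = 3). Sp7 followed at 13.8 ± 2.47 TPM and Dlx5 at 7.99 ± 1.94 TPM, and Ifitm5 was at 0.813 ± 0.237 TPM. Phex, at 0.0900 ± 0.0889 TPM, and Dmp1, at no more than 0.0200 TPM, were last. Bglap2 and Bglap overlapped between samples, as did Phex and Dmp1, whereas every other neighbouring pair in this order was separated in all 3 controls. The Acly controls gave the same order, with 171 ± 32.5 TPM of Bglap2, 113 ± 38.8 of Bglap, 25.3 ± 1.21 of Sp7, 14.4 ± 1.76 of Dlx5, 2.60 ± 0.326 of Ifitm5 and 0.667 ± 0.00577 of Phex. Dmp1 reached 0.243 CPM in its highest sample, and Sost and Mepe, which osteocytes secrete, reached 0.389 and 0.178 CPM, while 3 counts give 0.107 to 0.114 CPM at this depth. Other osteocyte genes were higher in the Acly controls, with Phex at 2.02 to 2.17 CPM and Fgf23, a phosphate hormone of osteocytes, at 3.16 to 5.18 CPM.

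**Figure D1:**
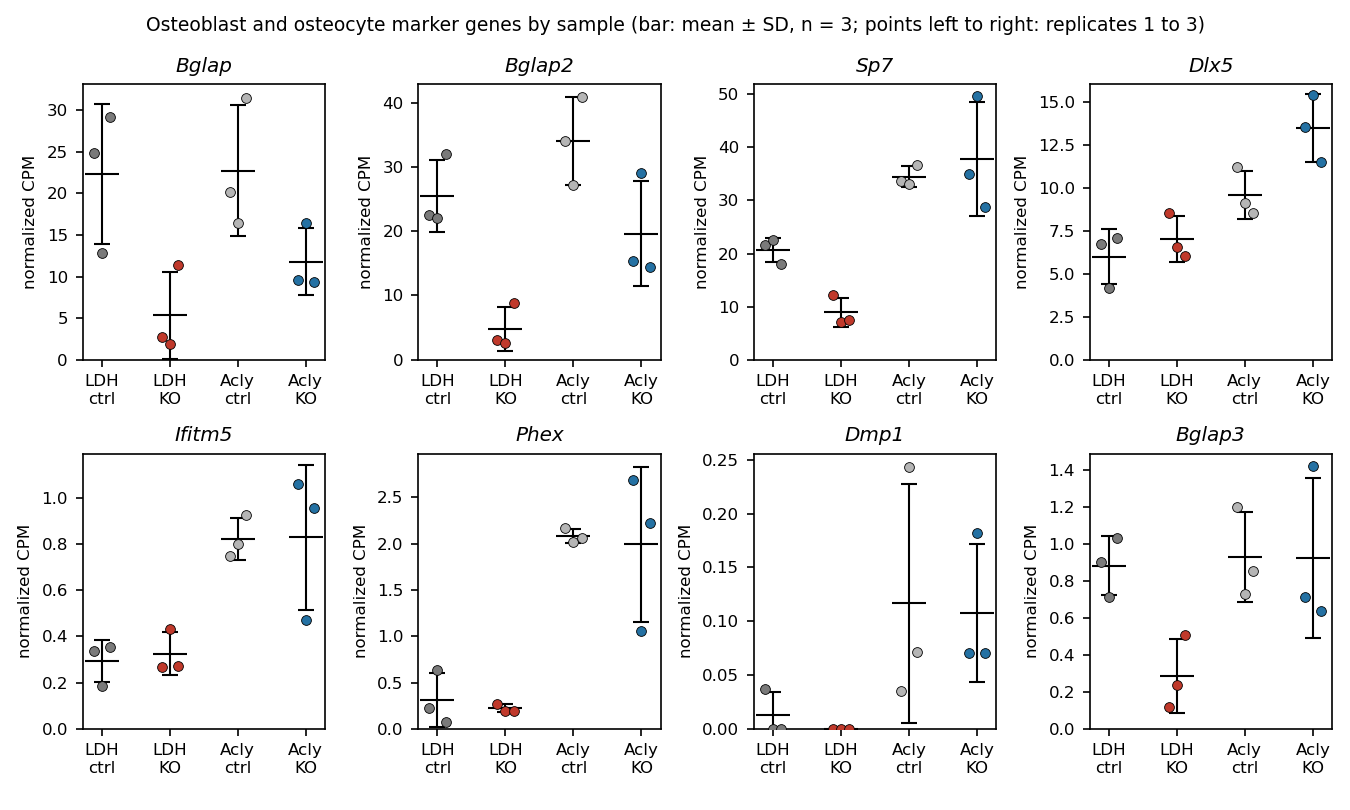
Levels of the 7 markers and of Bglap3 in each sample, as normalized CPM on linear axes that start at 0 and differ between panels; points are samples, horizontal bars the mean and whiskers the SD of 3 samples. Bglap2 and Sp7 are lower in all 3 LDH knockouts than in their controls, Dlx5 is higher in all 3 Acly knockouts, and Dmp1 stays under 0.25 CPM.

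Osteocalcin is encoded in the mouse by neighbouring gene copies on chromosome 3, all on the minus strand. In the GRCm38 annotation (GENCODE M21) Bglap lies at chr3:88383501-88384464, Bglap2 at chr3:88377736-88378699 and Bglap3 at chr3:88368616-88372743. The coding sequences of Bglap and Bglap2 are shown because their likeness decides how far reads can be assigned to one or the other. Capitals mark the bases at which they differ.
Bglap: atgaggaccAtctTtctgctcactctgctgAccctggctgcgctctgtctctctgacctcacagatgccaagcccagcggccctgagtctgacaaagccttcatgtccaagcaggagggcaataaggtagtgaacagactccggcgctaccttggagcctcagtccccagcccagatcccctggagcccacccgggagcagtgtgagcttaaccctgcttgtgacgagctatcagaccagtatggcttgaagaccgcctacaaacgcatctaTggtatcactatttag
Bglap2: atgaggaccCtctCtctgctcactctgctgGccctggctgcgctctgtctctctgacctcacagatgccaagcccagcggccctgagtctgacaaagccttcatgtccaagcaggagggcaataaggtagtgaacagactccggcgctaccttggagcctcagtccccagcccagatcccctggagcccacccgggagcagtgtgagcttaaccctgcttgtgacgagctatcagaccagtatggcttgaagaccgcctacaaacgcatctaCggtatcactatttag
Both run over 288 bases in 4 exons and differ at 4 of them, A10C, T14C, A31G and T273C, with the Bglap base first and positions counted from the A of the start codon, an identity of 98.6%. Their transcripts share an unbroken stretch of 241 bases. Bglap3, whose coding sequence has the same length, differs from Bglap at 13 bases and from Bglap2 at 9. The deposited counts carry the trace of this: the sum of the 3 copies was within 0.02 of a whole number in 11 of 12 samples, while Bglap alone and Bglap2 alone were so in 1 of 12 each. The split between copies is therefore an estimate, and their sum is given beside them.

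Osteocalcin transcripts were much lower in the LDH knockouts. Bglap2 was at 3.03, 2.66 and 8.79 CPM in the knockouts and at 22.5, 22.1 and 32.1 CPM in the controls. All 3 knockouts lay below all 3 controls, with the third knockout the highest of its group. The log2 fold change was -2.40 ± 0.38 (SE), 18.9% of the control level, with an adjusted p of 0.0156 by edgeR's quasi-likelihood test over 13321 genes, and Bglap2 had the fifth largest fall among them. Bglap was at 2.70, 1.94 and 11.3 CPM in the knockouts and 24.9, 12.9 and 29.2 CPM in the controls. These groups did not overlap either, but the third knockout came close to the second control. Its log2 fold change of -2.07 ± 0.56 did not pass the test (adjusted p = 0.0860, edgeR). Bglap3, a copy expressed at low level here, was at 0.115, 0.238 and 0.504 CPM against 0.899, 0.713 and 1.03 CPM (log2 fold change -1.61 ± 0.48, edgeR adjusted p = 0.107).

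Summed over the copies, osteocalcin was at 5.85, 4.84 and 20.6 CPM in the LDH knockouts and 48.2, 35.6 and 62.3 CPM in their controls. Every knockout was below every control. The sum fell to 21.4% of control, a log2 fold change of -2.22 ± 0.46 (edgeR adjusted p = 0.0378). Bglap made up 47.1% ± 7.50 of the summed counts in the knockouts and 44.9% ± 7.92 in the controls (SD, n = 3), so the difference in share was smaller than the spread in either group. The call on Bglap2 was lost without the first knockout (edgeR adjusted p = 0.0622) and without the third control (0.0650), and that on the sum without the first or second knockout or any 1 control, with log2 fold changes of -1.88 to -3.19 over the 6 omissions. Without the third knockout Bglap passed the test as well (-3.27, edgeR adjusted p = 0.00251). The third control, whose Y-linked signal was low like that of the knockouts, had the highest Bglap and Bglap2 of all 3 controls. With Y-linked signal as a covariate Bglap2 had a log2 fold change of -2.85 and no longer passed (edgeR adjusted p = 0.244), and the sum one of -2.69 (0.285).

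The Acly knockouts had lower mean osteocalcin, but not beyond the test. Bglap2 was at 15.4, 29.0 and 14.4 CPM in the knockouts and 34.1, 27.2 and 40.9 CPM in the controls. Bglap was at 9.58, 16.5 and 9.32 CPM against 20.2, 16.4 and 31.5 CPM. In both genes the second knockout was above the lowest control and the other two knockouts lay below all controls. The log2 fold changes were -0.78 ± 0.27 for Bglap2 (edgeR adjusted p = 0.266) and -0.93 ± 0.29 for Bglap (0.251), and that of the sum, at 25.7, 46.9 and 24.4 CPM against 55.5, 44.3 and 73.3 CPM, was -0.82 ± 0.27 (0.259). Bglap3 had a log2 fold change of 0.01 ± 0.41 (edgeR adjusted p = 0.996).

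Leaving out the second Acly knockout changed those calls. Without it Bglap2 had a log2 fold change of -1.19 (edgeR adjusted p = 0.00659), Bglap one of -1.26 (0.0340) and the sum one of -1.20 (0.0110). The same sample had the lowest Acly of its group and the lowest summed perichondrial and fibroblast markers, 995 CPM against 2276 and 2296 CPM in the other knockouts. Its skeletal muscle markers were also lowest, at 62.6 CPM against 124 and 167 CPM. The part of these differences in its osteocalcin level was not tested. Bglap made up 36.9% ± 1.57 of the summed osteocalcin counts in the Acly knockouts and 38.8% ± 3.67 in the controls (SD, n = 3).

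The start of Bglap is shown for the motifs through which osteoblast factors are known to act on osteocalcin genes. The 250 bases before the start of Bglap (RefSeq, GRCm38.p6, chr3:88384467-88384716, minus strand) are given 5′ to 3′, with the Runx core ACCACA and the OSE1 element TTACATCA in capitals.
Bglap promoter: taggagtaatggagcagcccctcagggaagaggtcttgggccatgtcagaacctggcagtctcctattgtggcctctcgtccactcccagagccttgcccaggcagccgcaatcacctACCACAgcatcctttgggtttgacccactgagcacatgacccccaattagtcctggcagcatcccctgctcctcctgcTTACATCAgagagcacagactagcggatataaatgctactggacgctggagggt
Both strands were searched over 300 bases, 250 before and 50 after each start, and the motifs do not overlap each other. The Runx core lay 132 to 127 bases and the OSE1 element 54 to 47 bases before the start. Among all 32851 promoters listed, 16.8% held the Runx core and 1.10% held OSE1. The table held promoters for 4 of the 7 genes, Bglap, Dmp1, Ifitm5 and Phex, and not for Bglap2, Sp7 and Dlx5. The second listed promoter of Dmp1 had a Runx core 164 to 159 bases before its start, and neither motif was found in the windows of Ifitm5 and Phex. A match describes letters and shows no binding.

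Sp7, also called osterix, encodes a zinc finger factor needed for osteoblast formation, and lies at chr15:102356606-102367182 (GRCm38, minus strand). It was at 12.1, 7.16 and 7.45 CPM in the LDH knockouts and 21.5, 22.5 and 18.1 CPM in their controls. All knockouts lay below all controls. The log2 fold change was -1.22 ± 0.20, 43.0% of control, with an adjusted p of 0.0164 by edgeR. The call was lost without the second knockout (edgeR adjusted p = 0.0556), without the first control (0.0517) and without the third control (0.0519), and with the Y-linked covariate, where the log2 fold change was -0.95 (0.332). The third control, low in Y-linked signal, had 18.1 CPM of Sp7, the lowest of its group and above all 3 knockouts.

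In the Acly set Sp7 was at 34.98, 49.7 and 28.7 CPM in knockouts and 33.6, 33.0 and 36.8 CPM in controls. The knockouts lay on both sides of the controls, with the second highest. The log2 fold change was 0.15 ± 0.19 (edgeR adjusted p = 0.687), and -0.11 without the second knockout.

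Dlx5 (chr6:6877805-6882085, GRCm38, minus strand) did not pass the test in either set. Its levels were 8.54, 6.53 and 6.01 CPM in the LDH knockouts and 6.71, 4.15 and 7.11 CPM in the controls, and the groups overlapped. The log2 fold change was 0.23 ± 0.22 (edgeR adjusted p = 0.608), and -0.20 with the Y-linked covariate. In the Acly set Dlx5 was at 13.5, 15.4 and 11.5 CPM in knockouts and 11.2, 9.10 and 8.52 CPM in controls. All 3 knockouts were above all 3 controls, though the lowest knockout was close to the highest control. The log2 fold change of 0.51 ± 0.17 did not pass the test (edgeR adjusted p = 0.258).

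Ifitm5, a membrane protein of mineralizing osteoblasts, and Phex, an endopeptidase of osteoblasts and osteocytes that limits the phosphate hormone Fgf23, were too low in the LDH set to be tested. Ifitm5 (chr7:140948958-140950291, GRCm38) had 7, 11 and 7 counts in LDH knockouts and 9, 5 and 9 in controls, 0.325 ± 0.0937 against 0.293 ± 0.0920 CPM. Phex (chrX:157162075-157415312, GRCm38) had 7, 5 and 5 counts in knockouts and 6, 17 and 2 in controls, 0.220 ± 0.0427 against 0.313 ± 0.289 CPM. The groups overlapped in both genes, and a moderate change was not detectable at these counts. Dmp1, an acidic matrix phosphoprotein of osteocytes (chr5:104202613-104214102, GRCm38), had no counts in the 3 LDH knockouts, which allows up to 0.109 to 0.110 CPM, and 1, 0 and 0 counts in the controls. It was also left out of the Acly test, with 2, 5 and 2 counts in knockouts and 1, 7 and 2 in controls.

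In the Acly set Ifitm5 was at 1.06, 0.473 and 0.955 CPM in knockouts and 0.746, 0.799 and 0.923 CPM in controls, with the second knockout lowest and the first highest of all. Its log2 fold change was 0.03 ± 0.36 (edgeR adjusted p = 0.976). Phex was at 2.69, 1.06 and 2.23 CPM in knockouts and 2.17, 2.02 and 2.06 CPM in controls, again with the second knockout lowest. Its log2 fold change was -0.05 ± 0.32 (edgeR adjusted p = 0.942), and 0.24 without that sample. In the annotation Ifitm5 overlaps the protein-coding Gm45717 on the same strand. Phex overlaps the processed pseudogene Gm15172 and the snoRNA Gm25795 on its own strand, and the miRNA Gm23798 on the other. Reads in an overlap could belong to either gene, and how many did so was not tested.

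**Figure D2:**
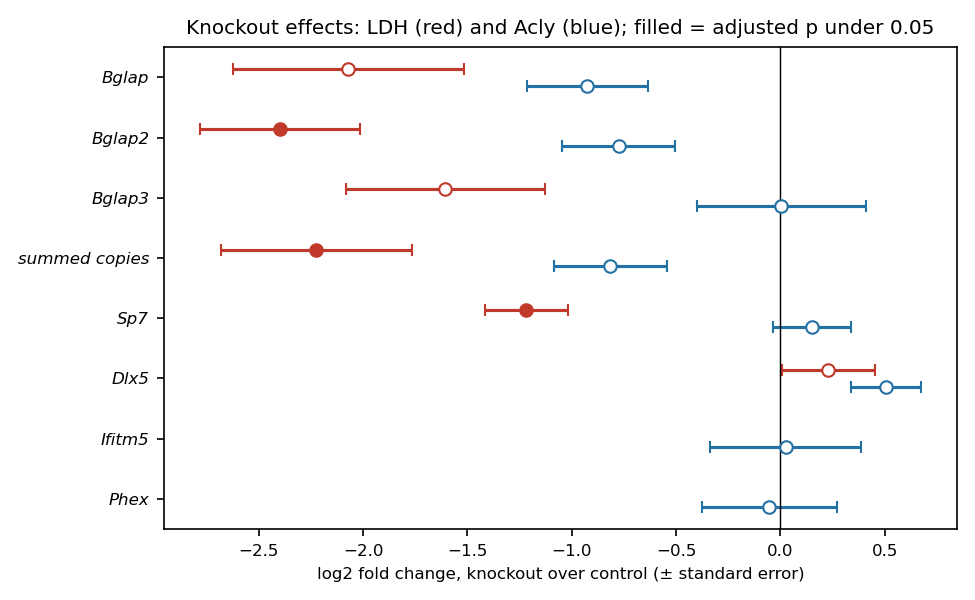
Log2 fold change of knockout over control with its standard error for each tested marker, Bglap3 and the summed osteocalcin copies, LDH in red and Acly in blue; filled points had an adjusted p under 0.05 by edgeR. The filled points are Bglap2 (-2.40), the summed copies (-2.22) and Sp7 (-1.22) in the LDH comparison, and no Acly point is filled.

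Of the 7 markers, 4 passed the filter on low counts in the LDH comparison and 2 were called, Bglap2 and Sp7, both lower, where 1.07% of all genes tested were called lower and 1.43% higher. In 3 of the 4 (Bglap, Bglap2 and Sp7) every knockout was below every control, against 12.1% of all genes in that direction and 12.2% in the other. Because Bglap and Bglap2 share reads, they do not count as separate observations in either set. In the Acly comparison 6 passed the filter and 0 were called by edgeR, with 3 at an unadjusted p under 0.05 and 1 called by DESeq2 (Bglap, log2 fold change -0.92, adjusted p = 0.0499). Over all genes 0.0787% were called lower and 0.0573% higher there by edgeR. Of the 13973 genes tested 2211 were at an unadjusted p under 0.05, and DESeq2 called 247 genes. Only Dlx5 separated its groups, upward, where 9.73% of all genes did so upward and 12.4% downward. In bulk RNA, fewer cells of a type and less RNA per cell cannot be told apart.

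Whether the knockouts differed in effect was tested in 1 fit of all 12 samples, in which the deleted gene and the age cannot be told apart. None of the 6 testable markers was called by edgeR, 2 were at an unadjusted p under 0.05 and 1 was called by DESeq2. Over all genes 0.161% were called by edgeR, 1855 of 14251 were at an unadjusted p under 0.05, and DESeq2 called 213. The difference of log2 fold changes, LDH minus Acly, was -1.35 ± 0.29 for Sp7 (edgeR adjusted p = 0.0971; DESeq2 -1.38, adjusted p = 0.00151), -1.60 ± 0.52 for Bglap2 (0.264) and -1.12 ± 0.72 for Bglap (0.511). Without the third LDH knockout Bglap2 passed (-2.36, edgeR adjusted p = 0.0306). Dlx5 had a difference of -0.26 ± 0.30 (edgeR adjusted p = 0.715), Ifitm5 one of 0.13 ± 0.58 (0.935) and Phex one of -0.45 ± 0.76 (0.817).

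The control groups themselves differed in 4 of the 6 markers that could be tested, all higher in the Acly controls at embryonic day E18.5 than in the LDH controls at postnatal day 5. Age, mouse line and any sequencing batch cannot be told apart in this comparison, in which 29.4% of all genes were called higher and 25.7% lower, so a large share of calls was the background. Phex was at 2.08 ± 0.0779 against 0.313 ± 0.289 CPM, and its log2 fold change was 2.70 ± 0.50 (edgeR adjusted p = 5.34e-04). Ifitm5 was higher by a log2 fold change of 1.48 ± 0.41 (edgeR adjusted p = 0.00782), and Sp7 by 0.74 ± 0.20 (0.00765). Dlx5 was higher by 0.68 ± 0.21 (edgeR adjusted p = 0.0145), a call lost without the second LDH control (0.0844) or the first Acly control (0.0646). Osteocalcin did not pass the test here: Bglap had a log2 fold change of 0.03 ± 0.49 (edgeR adjusted p = 0.967) and Bglap2 one of 0.42 ± 0.35 (0.334). Markers of other cells were also higher in the Acly controls, with perichondrial and fibroblast markers summing to 2698 to 3214 CPM against 707 to 1051 CPM, endothelial markers to 62.1 to 74.9 against 7.30 to 11.6 CPM, and skeletal muscle markers to 155 to 210 against 9.36 to 16.9 CPM. Their part in the marker differences was not tested. Without scaling factors the median of all genes in this comparison moved from 0.02 to 0.19, and the share of calls that were higher from 53.3% to 72.4%.

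Other genes of the osteoblast programme gave a mixed picture in the LDH knockouts. Of 7 tested transcription regulators, among them Runx2, the factor upstream of Sp7, edgeR called 0, with 1 at an unadjusted p under 0.05 and 0 called by DESeq2. Their median log2 fold change was -0.19, beside 0.005 for all genes. Of all 13321 genes tested in this comparison 2614 were at an unadjusted p under 0.05. Runx2 was at 35.1 ± 4.30 against 44.2 ± 5.39 CPM (log2 fold change -0.33, edgeR adjusted p = 0.155). Of 7 bone matrix genes edgeR called 2 lower and 1 higher, with a median of -0.85. In this list 6 were at an unadjusted p under 0.05 and 4 were called by DESeq2, with 2 fitted higher and 5 lower. Col1a2, a chain of type I collagen, fell from 153 ± 41.7 to 76.4 ± 9.55 CPM (log2 fold change -1.004 ± 0.17, edgeR adjusted p = 0.0196), and Spp1, osteopontin, from 7697 ± 1321 to 3830 ± 1145 CPM (-1.01 ± 0.21, 0.0384). Omd, osteomodulin, rose from 5.51 ± 0.574 to 17.0 ± 2.33 CPM (log2 fold change 1.63 ± 0.15, edgeR adjusted p = 0.00194). Sparc, which was not called, was higher in every knockout than in every control. It was at 2711 ± 305.5 against 2012 ± 148.3 CPM (log2 fold change 0.43 ± 0.11, edgeR adjusted p = 0.0667). With the Y-linked covariate Col1a2 was at -0.82 (edgeR adjusted p = 0.338), Spp1 at -0.87 (0.384) and Omd at 1.78 (0.175), so none of these 3 called genes passed. Omd passed when any 1 sample was left out, Col1a2 did not without the first or second knockout or the third control (edgeR adjusted p of 0.0910, 0.0743 and 0.0611), and Spp1 passed in no omission but that of the third knockout (0.0586 to 0.0997 in the others).

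The steps that act on osteocalcin and mineral showed few calls in the LDH set. Ggcx, the carboxylase that modifies osteocalcin, fell from 29.1 ± 1.73 to 21.03 ± 1.58 CPM (log2 fold change -0.47 ± 0.10, edgeR adjusted p = 0.0364) as 1 of 3 carboxylation and cleavage genes tested, with a list median of -0.07. Of 9 mineralization and phosphate genes edgeR called 0, with 3 at an unadjusted p under 0.05 and 2 called by DESeq2, and a median of -0.02. The phosphate transporter Slc20a1 had the lowest p, with a log2 fold change of -0.44 (edgeR adjusted p = 0.0547). Panx3 and Smpd3 went the other way, at 1.05 (edgeR adjusted p = 0.0841) and 1.02 (0.155). Of the 9, 4 were fitted higher and 5 lower. Of 6 osteocyte genes 2 could be tested, and Pdpn, a membrane glycoprotein of early osteocytes that other cells also carry, fell from 16.4 ± 3.78 to 9.09 ± 1.41 CPM (-0.86 ± 0.18, edgeR adjusted p = 0.0428). The call on Pdpn was lost whichever sample was left out (edgeR adjusted p of 0.0502 to 0.156) and that on Ggcx unless it was the third knockout (0.0611 to 0.164), and with the Y-linked covariate Pdpn was at -0.36 (0.611) and Ggcx at -0.32 (0.406). Of the 3 signals from osteoblasts to osteoclasts edgeR called 0, with 1 at an unadjusted p under 0.05 and 1 called by DESeq2. Csf1 had a log2 fold change of -0.29 (edgeR adjusted p = 0.138). Of 5 osteoclast markers edgeR called 0, with 3 at an unadjusted p under 0.05 and 2 called by DESeq2, and Ctsk was at -0.42 (edgeR adjusted p = 0.0573). Acp5 went the other way at 1.505 (edgeR adjusted p = 0.0661), as did Mmp9 at 0.545 (0.247). The osteoclast list had 3 genes fitted higher and 2 lower, with a median of 0.036.

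In the Acly knockouts none of these 6 lists of bone genes, nor the osteoclast markers, held a gene called by edgeR. Of all 13973 genes tested there 2211 were at an unadjusted p under 0.05. Of 9 mineralization and phosphate genes 4 were at an unadjusted p under 0.05 and 3 were called by DESeq2, with a median log2 fold change of 0.15. Smpd3, a sphingomyelinase needed for bone and cartilage mineral, was at 42.0 ± 15.5 against 14.9 ± 3.06 CPM (log2 fold change 1.502 ± 0.26, edgeR adjusted p = 0.0894). Slc20a1 went the other way, at 99.1 ± 0.730 against 134.8 ± 11.5 CPM. Of the 9, 6 were fitted higher and 3 lower. Of 7 bone matrix genes 2 were at an unadjusted p under 0.05 and DESeq2 called 0, with Sparc at a log2 fold change of 0.26 (edgeR adjusted p = 0.278) and a median of -0.26. Spp1 was lower in the mean, at 5120 ± 1013 against 7274 ± 1695 CPM, and 3 of the 7 were fitted higher and 4 lower. Of 8 transcription regulators 1 was at an unadjusted p under 0.05 and DESeq2 called 0, with Cbfb at -0.34 (edgeR adjusted p = 0.247). Of 3 osteocyte genes 2 were at an unadjusted p under 0.05 and DESeq2 called 0, and the hormone gene Fgf23 was at 1.73 ± 1.07 against 4.14 ± 1.01 CPM (-1.25 ± 0.46, edgeR adjusted p = 0.273). Of 3 osteoclast signals 2 were at an unadjusted p under 0.05 and DESeq2 called 0, with Tnfsf11, RANKL, at -1.19 (edgeR adjusted p = 0.259). Csf1 was higher in the mean, at 1295 ± 193.2 against 999.5 ± 100.3 CPM, and 1 of the 3 was fitted higher and 2 lower. The carboxylation and cleavage genes had 0 at an unadjusted p under 0.05 and 0 called by DESeq2, with Vkorc1 at 0.17 (edgeR adjusted p = 0.424). Of 5 osteoclast markers 1 was at an unadjusted p under 0.05 and DESeq2 called 0, with Mmp9 at -0.57 (edgeR adjusted p = 0.244).

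**Figure D3:**
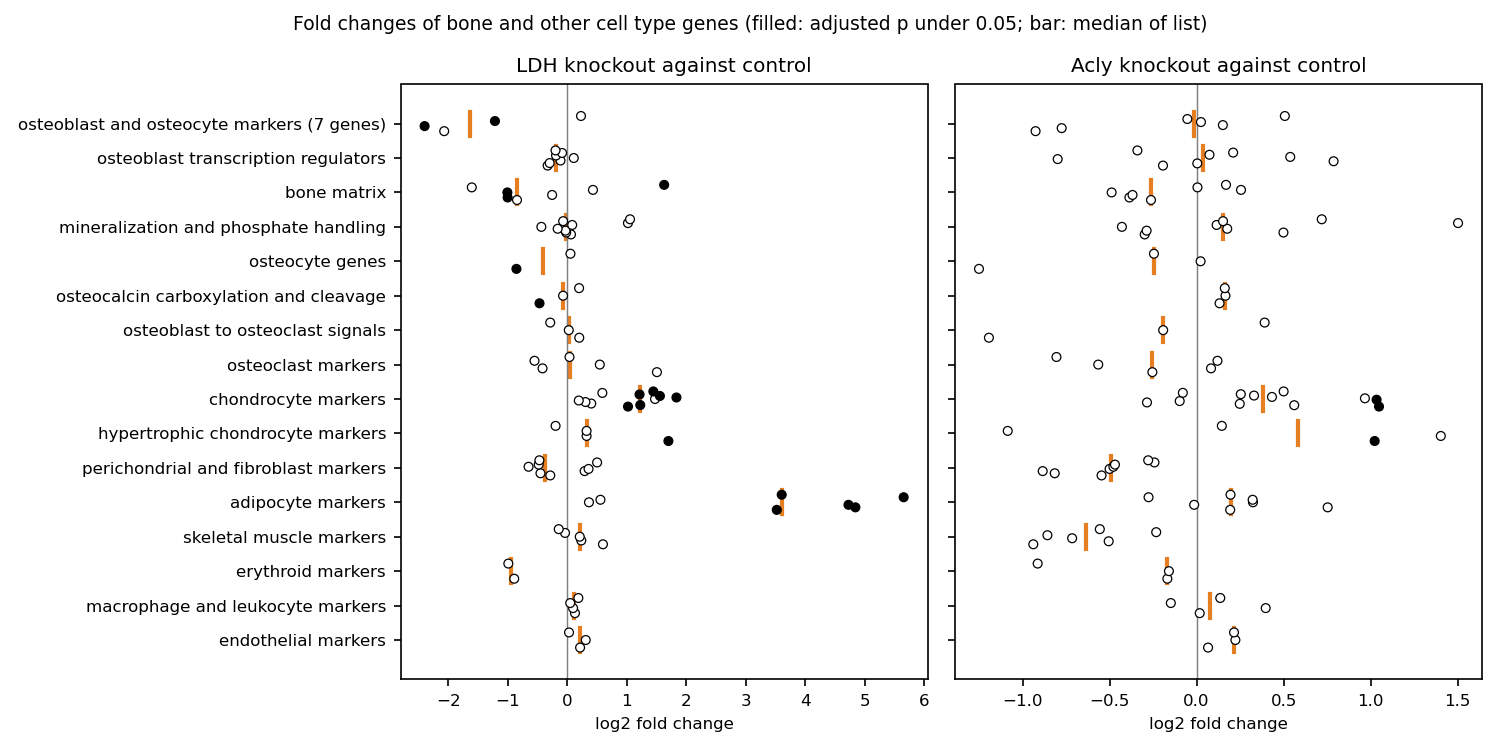
Log2 fold changes of single genes by list in the LDH (left) and Acly (right) comparisons, on different horizontal scales; each point is 1 gene, filled where the adjusted p was under 0.05 by edgeR, and the orange bar is the list's median. In the LDH panel filled points lie left of 0 for bone genes except Omd and right of 0 for chondrocyte, hypertrophic and adipocyte markers.

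The chondrocyte, hypertrophic chondrocyte and adipocyte lists held genes called by edgeR in the LDH set, all higher in the knockouts. Of 11 chondrocyte markers 6 rose and 0 fell, with a median log2 fold change of 1.21. Acan, the cartilage proteoglycan aggrecan, rose by 1.23 ± 0.13 (edgeR adjusted p = 0.00351), Snorc by 1.45 ± 0.15 (0.00316), Col11a1 by 1.21 ± 0.16 (0.00731) and Matn3 by 1.83 ± 0.27 (0.0101). The 12 markers listed summed to 20003 to 29995 CPM in the knockouts and 11009 to 12761 CPM in the controls. Col10a1, the collagen of hypertrophic cartilage, rose by 1.70 ± 0.26 on the log2 scale (edgeR adjusted p = 0.0118), 1 of 4 hypertrophic markers. Of 7 adipocyte markers 5 rose, including Plin1, from 0.178 ± 0.0588 to 5.22 ± 2.53 CPM (edgeR adjusted p = 0.00286), and Fabp4, from 1.25 ± 0.400 to 15.2 ± 10.4 CPM (0.00945). Cfd and Cidec also passed, at 5.33 ± 3.71 and 2.47 ± 1.26 CPM in the knockouts and about the level of 3 counts in the controls (edgeR adjusted p = 0.00788 and 0.00945). The adipocyte markers summed to 73.5 to 113 CPM against 38.4 to 54.6 CPM, with Lep at no more than 0.0769 CPM in any sample. With the Y-linked covariate none of the 6 chondrocyte, 1 hypertrophic and 5 adipocyte calls passed edgeR, while the list medians were 1.25 for chondrocyte and 3.87 for adipocyte markers. Acan was then at 1.499 (edgeR adjusted p = 0.175), Col10a1 at 2.22 (0.271) and Plin1 at 4.32 (0.284). Without the third control 4 of the 6 chondrocyte and 1 of the 5 adipocyte calls passed, and Col10a1 did not (edgeR adjusted p = 0.0614). The part of these shifts in the bone marker values was not tested.

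Perichondrial and fibroblast markers, which sit beside osteoblast precursors around cartilage, summed to 773 to 930 CPM in LDH knockouts and 707 to 1051 CPM in controls. Of 8 tested edgeR called 0, with 3 at an unadjusted p under 0.05 and 2 called by DESeq2, and Prrx1 had a log2 fold change of -0.47 (edgeR adjusted p = 0.0650). Over all genes tested 2614 of 13321 were at an unadjusted p under 0.05. Of the skeletal muscle, macrophage and endothelial markers edgeR called 0, with 0 at an unadjusted p under 0.05 and 0 by DESeq2, and Myh3, Csf1r and Cdh5 had log2 fold changes of 0.60 (edgeR adjusted p = 0.535), 0.19 (0.743) and 0.31 (0.602). Both erythroid markers tested were at an unadjusted p under 0.05, with 0 called by edgeR or DESeq2 and Hba-a1 at -0.99 (edgeR adjusted p = 0.132).

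In the Acly set, Col2a1 and Comp rose among 12 chondrocyte markers, by 1.05 ± 0.11 (edgeR adjusted p = 0.0138) and 1.03 ± 0.09 (0.00722), and Col10a1 among 4 hypertrophic markers by 1.02 ± 0.13 (0.0314). Of these 4, 3 were at an unadjusted p under 0.05 and 3 were called by DESeq2, with 3 fitted higher and 1 lower. Over all genes tested 2211 of 13973 were at an unadjusted p under 0.05. Mmp13 was at 58.5 ± 11.7 CPM in knockouts and 125 ± 22.8 CPM in controls. The hypertrophic markers summed to 151 to 187 CPM in knockouts and 183 to 211 CPM in controls. The chondrocyte markers summed to 14417 to 16553 CPM in knockouts and 8740 to 9549 CPM in controls, and their part in the osteocalcin values was not tested. Col2a1 and Comp did not pass without any 1 of the controls (edgeR adjusted p of 0.0807 to 0.233 and 0.0648 to 0.112), Col2a1 also not without the third knockout (0.0840), and Col10a1 passed in no omission but that of the second knockout (0.0590 to 0.233 in the others) and not with the Y-linked covariate (0.0626). All 8 perichondrial and fibroblast markers had a fold change below 0, but edgeR called 0, with 3 at an unadjusted p under 0.05 and 1 called by DESeq2. Dcn was at -0.88 (edgeR adjusted p = 0.179). Of 6 skeletal muscle markers edgeR called 0, with 3 at an unadjusted p under 0.05 and 1 called by DESeq2, and Tnnt1 at -0.72 (edgeR adjusted p = 0.222). Of 4 macrophage markers edgeR called 0, with 1 at an unadjusted p under 0.05 and 1 called by DESeq2 (Cd68, log2 fold change 0.40, edgeR adjusted p = 0.192). The adipocyte, endothelial and erythroid markers had 0 called by edgeR, 0 by DESeq2 and 0 at an unadjusted p under 0.05, with Plin1 at 0.75 (edgeR adjusted p = 0.354), Kdr at 0.22 (0.418) and Alas2 at -0.91 (0.485).

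To describe which markers vary together, the 6 markers past the filter in all 12 samples were averaged as z-scores, each set of 6 centred on its own mean. Sp7, Bglap2 and Bglap followed that average with Pearson's r of 0.81, 0.81 and 0.79, while Ifitm5, Phex and Dlx5 had r of 0.02, 0.06 and -0.14. The points are 12 libraries that share 4 groups, and each marker is part of the average. Bglap and Bglap2 share reads, which weights the average towards osteocalcin. Ifitm5 and Phex had few counts in the LDH set, which limits their r. Among 12706 other genes the 8 most like it were Hyal1 (r = 0.95), Dnajb6 (0.93), Slc2a5 (0.92), Adamtsl1 (0.91), Ldha (0.90), Homer2 (0.90), Fbxo44 (0.89) and Smap1 (0.89). The average itself was at -0.69 to -0.34 in the LDH knockouts and 0.25 to 0.68 in their controls, so genes like it are low in those knockouts by their selection, among them Ldha, the gene deleted there. Slc2a5, a fructose transporter, had a log2 fold change of -3.68 ± 0.20 in the LDH set, given as a description. In the Acly comparison Slc2a5 had a log2 fold change of -0.45 ± 0.17 (edgeR adjusted p = 0.287).

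**Figure D4:**
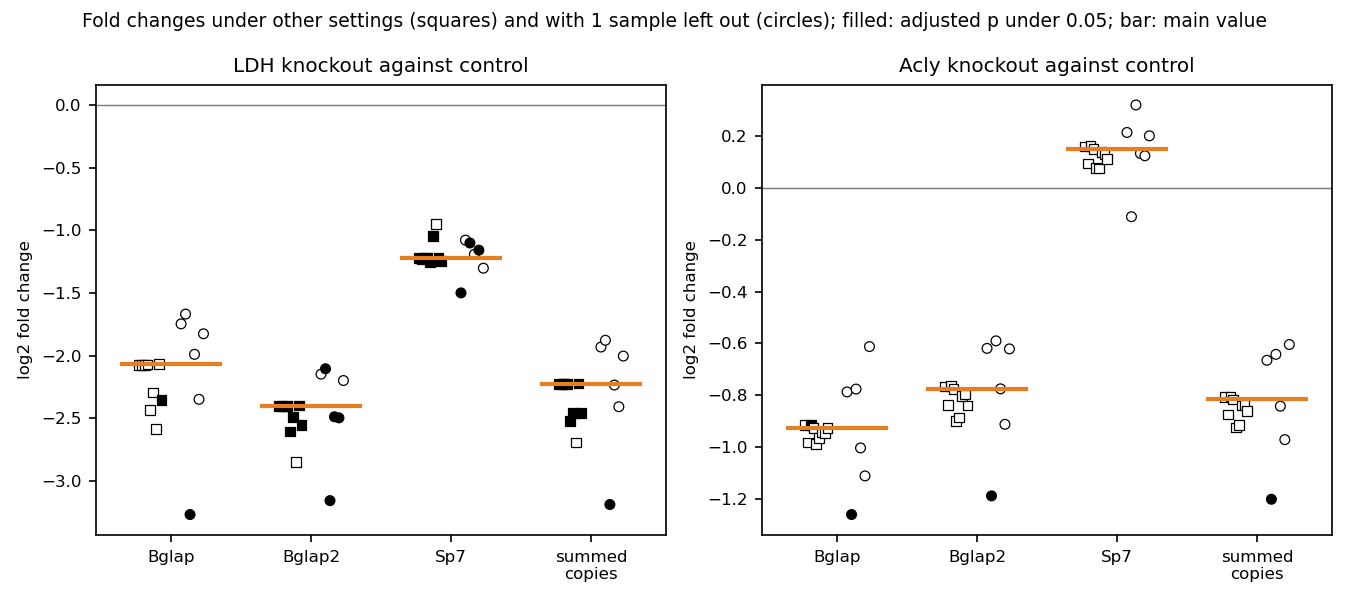
Log2 fold changes of Bglap, Bglap2, Sp7 and the summed osteocalcin copies under other settings (squares) and with 1 sample left out (circles), in the LDH (left) and Acly (right) comparisons; filled symbols had an adjusted p under 0.05 and the orange bar is the reported value. All LDH values lie below 0, from -3.27 to -0.95, while Sp7 in the Acly panel lies on both sides of 0.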

How the data were processed

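Poly(A)-selected RNA of 12 samples was sequenced at BGI, per the labels' protocols. HISAT2 2.0.4 and the mm9 build are named in the submitters' processing notes. The counting program, annotation and use of strand are not given in the sources used here. The authors deposited 1 table of 51 columns with expected counts, FPKM and TPM per gene, and 12 columns of averages were not used. Of the deposited expected counts 7.32% to 8.16% per sample were not whole, so they were rounded before testing. The FPKM values of the authors served for an alternative test and the deposited TPM values for levels per length. Coordinates come from GRCm38, not from the build of the counts. Libraries held 26362407 to 28154143 counts, and 3 counts, 0.107 to 0.114 CPM, were taken as the floor, which covers counting error only.

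Tests were two-sided quasi-likelihood F tests in edgeR 4.0.16 (R 4.3.3) with TMM, filterByExpr and Benjamini-Hochberg adjustment over all genes tested, threshold 0.05. Each knockout was fitted with its control (6 samples), and the difference of effects and the control groups in all 12. The standard error is the log2 fold change divided by the square root of F. In a further fit Bglap, Bglap2 and Bglap3 were replaced by their sum. The code was tested on simulated data. The 7 genes and all gene lists were chosen with earlier results of these data known. Named are the 7 genes, Bglap3, the deleted genes and, per list, every gene called if 4 or fewer, otherwise the 4 with the lowest p, or, with none called, the gene with the lowest p. Mmp13, Slc20a1, Spp1 and Csf1 in the Acly set and Acp5, Mmp9, Panx3, Smpd3 and Sparc in the LDH set were added because they went against a gene so named. Not every gene that did so was added. Also named are the 8 genes most like the markers (log2 CPM, prior count 2, mean of at least 1 CPM). Alternatives were median-of-ratios scaling, no scaling, DESeq2 1.42.0, no filter, limma 3.58.1 on log2(FPKM + 0.1) and log2(FPKM + 1), a Y-linked covariate, 1 fit of 12 samples, the replicate number as a block and leaving out each sample. The Y-linked covariate and the omissions were applied to the gene lists after seeing the data.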

Additional observations from a re-analysis of the deposited data

How the results depend on the processing

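The fall of Bglap2, Sp7 and summed osteocalcin in the LDH set kept its direction under all 15 alternatives tried, with log2 fold changes of -3.16 to -2.10, -1.50 to -0.95 and -3.19 to -1.88. The markers called there numbered 0 to 3 when a sample was left out and 0 with the Y-linked covariate, under which Bglap2 was at -2.85, Sp7 at -0.95, the summed copies at -2.69 and Dlx5 at -0.20. Genes called in all numbered 901 with DESeq2, 3 with the Y-linked covariate and 95 to 1068 with a sample left out.

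In the Acly set, genes called numbered 11 without scaling factors, 247 with DESeq2, 32 without the filter, 6 with the Y-linked covariate, 31 in the fit of 12 samples and 0 to 132 with a sample left out. Markers called numbered 1 with DESeq2 and 0 to 2 with a sample left out, when the summed copies ranged from -1.20 to -0.60. Ifitm5 changed sign without scaling factors (-0.015), with limma at pseudocounts of 0.1 (-0.092) and 1 (-0.038) and without knockout 1, knockout 3 or control 1. With a sample left out it ranged from -0.181 to 0.295, Sp7 from -0.111 to 0.32 and Phex from -0.32 to 0.243, with the sign of Sp7 and Phex turned by omitting knockout 2. For the difference of effects, 213 genes were called with DESeq2 and 5 to 143 with a sample left out, and 1 marker with DESeq2 and 0 to 1 with a sample left out. There Ifitm5 ranged from -0.142 to 0.351, negative without LDH knockout 2, LDH control 2 or Acly knockout 2, and Phex from -0.888 to 0.551, positive without LDH control 2. Between controls, Bglap ranged from -0.289 to 0.265, negative without LDH control 2 or Acly control 3. The cause of these changes was not tested.

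The replicate numbers did not pair the samples: same-numbered deviations correlated at 0.05, -0.16 and 0.01 in the LDH set and 0.00, -0.21 and -0.22 in the Acly set, and 1 of 6 and 0 of 6 samples correlated best with their own number. With the replicate block Bglap passed in the LDH set (-2.36, edgeR adjusted p = 0.00738) and 3 markers were called; 8 genes were called in the Acly set, with Ifitm5 at -0.023, and 5 for the difference of effects. Depth limits Dmp1, Ifitm5 and Phex, which had 17 counts or fewer in every LDH sample.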
